A study of Homo sapiens with 9 samples.

Results

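The genes of cholesterol and fatty acid synthesis were followed across the 9 RNA-Seq libraries. The 32 members were the genes whose symbol in the count table equalled a name on a list of 18 sterol enzymes, 6 regulators of sterol regulatory element-binding proteins (SREBPs) and 8 fatty acid enzymes. They were 32 of the 58735 genes in the table. MIA PaCa-2 is an established pancreatic cancer line, labelled WT, and all RNA came from this 1 line. Cells received 1 μM SCH772984, an inhibitor of the ERK kinases (ERKi), 1 μM compound 1, an inhibitor of TBK1 and IKKε (TBK1i), or 0.1% DMSO, each for 24 h. There were 3 libraries per treatment, and the labels do not say that they came from separate cultures, so p-values measure the spread between these libraries, which may be technical. The comparisons ask what each inhibitor did to the RNA of these genes and whether the inhibitors differed.

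Cells make cholesterol from acetyl-CoA through the mevalonate pathway, in which farnesyl units are joined into squalene, squalene is closed into lanosterol, and lanosterol is trimmed to cholesterol. Fatty acids are built from the same acetyl-CoA and are then elongated and desaturated. The SREBP transcription factors serve both pathways. They are held in the endoplasmic reticulum by SCAP and the INSIG proteins when sterols are plentiful and are cut and released to the nucleus when sterols are scarce.

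Totals were 9464432 to 10286223 counts in DMSO, 9652741 to 9840769 with compound 1 and 11056977 to 13887859 with SCH772984. The share of counts from mitochondrially encoded genes was 3.33% to 3.98% in DMSO, 3.41% to 3.92% with compound 1 and 6.23% to 7.52% with SCH772984. Compound 1 replicate 1 stood apart from replicates 2 and 3, with a chi-square per degree of freedom of 10.1 and 7.61 against 2.66 between the other two. The epithelial keratins KRT8, KRT18 and KRT19 and VIM were present in all 9 libraries, and KRT8 fell from 2488 ± 71.0 to 771 ± 47.3 CPM with SCH772984 (SD, n = 3), where CPM is the read count scaled to library size with TMM factors. KRT18 fell by 2.40 and VIM by 0.23 on the log2 scale, and KRT19 did not pass the test at 0.11 (edgeR adjusted p = 0.149). Of 6 markers of leukocytes, endothelium, fibroblasts and acinar cells, PTPRC, PRSS1 and CPA1 had 0 counts in all libraries, which allows up to 3 counts in each. PECAM1 had 0 or 1, ACTA2 had 10 to 31, and COL1A1 had 1 to 4 counts in DMSO and compound 1 against 28 to 48 with SCH772984. The 6 markers summed to 1.21 to 2.25 CPM in DMSO, 1.14 to 1.72 with compound 1 and 3.54 to 5.29 with SCH772984. Without COL1A1 the sums were 1.10 to 1.84, 1.04 to 1.40 and 1.18 to 2.08 CPM. All 12 tested genes of ERK output fell with SCH772984, among them SPRY4, a feedback inhibitor of the pathway, by 6.81 on the log2 scale (SE 0.11, edgeR adjusted p = 6.44e-40), and 0 of 12 passed the test with compound 1.

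Promoter sequences were taken from RefSeq (GRCh38.p14) for 28 members. ACAT2, FDFT1, SQLE and FASN had no entry. The set printed here holds SREBF2 and HMGCS1, MSMO1 and INSIG1 as examples of sterol members with large rises with SCH772984, then INSIG2, which rose less, and HSD17B7, which did not pass the test. The windows of TM7SF2 and MVK start in or near exons of another protein-coding gene and are not printed. Each stretch runs from 250 bases before the start site towards it and stops at the first base that GENCODE 29 places in an exon of a protein-coding gene. Capitals mark the sterol regulatory element (SRE, TCACNCCAC, bound by SREBPs) and the CCAAT box (CCAAT, or ATTGG on the other strand, bound by NF-Y).
SREBF2: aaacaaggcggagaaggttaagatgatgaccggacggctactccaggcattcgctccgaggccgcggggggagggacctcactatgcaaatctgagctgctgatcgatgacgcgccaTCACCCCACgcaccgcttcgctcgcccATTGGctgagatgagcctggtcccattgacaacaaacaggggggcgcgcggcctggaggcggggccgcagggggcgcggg
HMGCS1: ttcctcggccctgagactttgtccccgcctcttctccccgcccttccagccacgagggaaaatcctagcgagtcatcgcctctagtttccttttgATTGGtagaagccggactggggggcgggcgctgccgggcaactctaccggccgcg
MSMO1: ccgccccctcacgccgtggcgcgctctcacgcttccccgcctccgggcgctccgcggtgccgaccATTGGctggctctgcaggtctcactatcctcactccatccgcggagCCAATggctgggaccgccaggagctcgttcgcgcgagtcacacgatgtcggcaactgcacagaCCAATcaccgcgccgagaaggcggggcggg
INSIG1: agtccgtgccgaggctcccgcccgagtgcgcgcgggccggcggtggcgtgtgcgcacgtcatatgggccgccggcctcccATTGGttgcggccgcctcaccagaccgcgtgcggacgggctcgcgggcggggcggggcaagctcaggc
INSIG2: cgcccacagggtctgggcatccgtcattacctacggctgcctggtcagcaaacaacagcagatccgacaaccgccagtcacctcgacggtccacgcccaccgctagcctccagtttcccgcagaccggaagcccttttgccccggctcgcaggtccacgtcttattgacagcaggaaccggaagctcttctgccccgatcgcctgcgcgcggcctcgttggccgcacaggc
HSD17B7: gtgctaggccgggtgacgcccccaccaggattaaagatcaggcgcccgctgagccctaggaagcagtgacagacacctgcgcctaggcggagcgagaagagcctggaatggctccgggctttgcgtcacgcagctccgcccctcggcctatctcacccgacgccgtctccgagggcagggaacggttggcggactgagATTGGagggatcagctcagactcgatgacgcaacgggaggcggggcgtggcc
The stretches lie at chr22:41832855-41833078 (+ strand), chr5:43313513-43313662 (- strand), chr4:165327419-165327622 (+ strand), chr7:155297628-155297775 (+ strand), chr2:118088221-118088451 (+ strand) and chr1:162790452-162790701 (+ strand), in that order. Each is the region just upstream of the first exon of its gene.

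The motifs were searched on both strands from 250 bases before to 50 bases after the start site. A CCAAT box was present in 12 of 15 sterol enzyme promoters (80.0%), 3 of 6 regulator promoters and 3 of 7 fatty acid enzyme promoters, against 34.6% of all 35116 RefSeq promoters and 36.5% of the 9810 that belong to genes tested with SCH772984. MVK and NSDHL carried 5 CCAAT boxes each, the most among the members, and MSMO1 carried 4. The exact SRE was found in 1 of 28 members, SREBF2, beginning 133 bases before the start site, and in 1.13% of all promoters. A GC box (GGGCGG), the site of SP1, stood in 26 of 28 members (92.9%) against 71.7% of promoters of tested genes. An E-box (CACGTG) stood in 4 of 28 (14.3%) against 10.3%. None of these motifs lies within another. A CCAAT box was present in HSD17B7, EBP and ACLY, which did not pass the test with SCH772984, and was not found in the windows of 8 members that rose: IDI1, CYP51A1, INSIG2, SREBF1, SCAP, ACACA, FADS1 and FADS2. The IDI1 and FADS2 windows are uncertain, because the bases after their RefSeq start site matched no GENCODE 29 transcript of the gene, whereas those of the other 26 windows did.

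With SCH772984, 25 of 31 tested members rose and 2 fell against DMSO (edgeR quasi-likelihood test, Benjamini-Hochberg adjusted p under 0.05 over 13834 genes). Of all genes tested, 37.2% rose and 35.5% fell, so the members' share of higher calls was above the background and their share of lower calls was below it. All 18 sterol enzymes were tested, and 15 rose and 0 fell. The 5 tested regulators all rose. Among the 8 fatty acid enzymes 5 rose and 2 fell. PMVK, HSD17B7, EBP and ACLY did not pass the test. The median log2 fold change was 1.41 for the sterol enzymes, 0.42 for the regulators and 0.86 for the fatty acid enzymes, against 0.028 for all genes tested. Without the filter on low counts the regulators' median was 0.39 and that of all genes 0.36. STARD4 had no counts and was not tested. In bulk libraries a change in RNA per cell and a change in the number of cells that hold it cannot be told apart. The higher mitochondrial share, the lower KRT8, KRT18 and VIM and the higher COL1A1 moved with the same libraries, and their part in these changes was not tested.

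**Figure D1:**
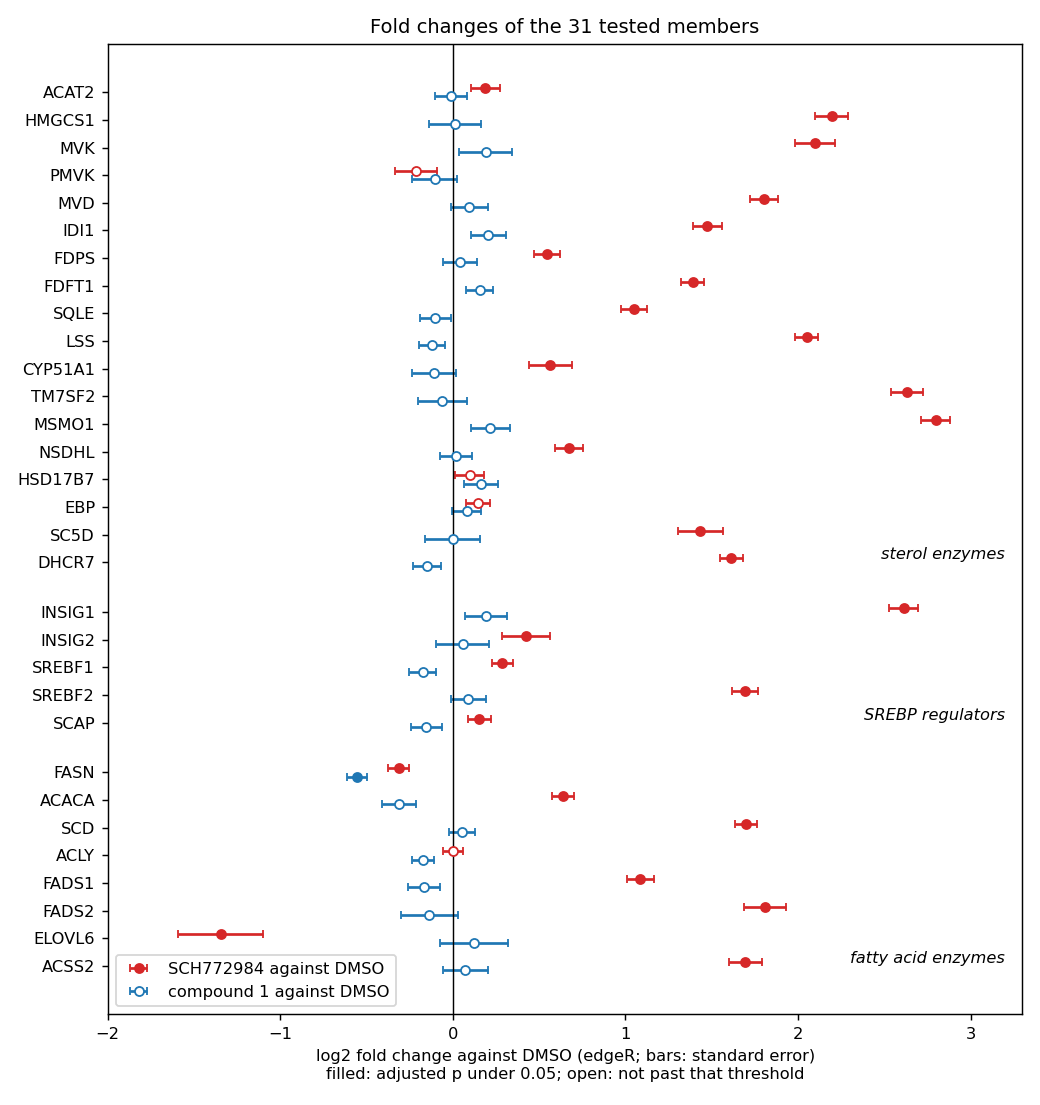
Log2 fold change against DMSO (x axis, edgeR) of each of the 31 tested members (y axis, ordered by role), in red for SCH772984 and blue for compound 1, with standard errors as bars, filled where the adjusted p is under 0.05. MSMO1, TM7SF2 and INSIG1 lie farthest to the right with SCH772984 at 2.80, 2.63 and 2.61, while FASN is the only filled blue point.

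The sterol enzymes had the highest median log2 change of the 3 roles, without a test of that order. MSMO1, the methylsterol oxidase that acts on the methyl groups of lanosterol derivatives, measured 18.3, 18.3 and 18.3 CPM in the DMSO libraries, 20.2, 22.5 and 20.9 with compound 1 and 128, 131 and 124 with SCH772984. All SCH772984 libraries were far above the other 6, and MSMO1 rose 6.95-fold (log2 2.80, SE 0.08, edgeR adjusted p = 2.62e-30). TM7SF2, a sterol reductase of the same stretch of the pathway, measured 17.9, 14.8 and 15.4 CPM in DMSO, 17.9, 14.6 and 13.6 with compound 1 and 99.3, 94.2 and 106 with SCH772984. The compound 1 libraries fell on both sides of the DMSO range, and the SCH772984 libraries overlapped neither group. Its rise was 6.20-fold (log2 2.63, SE 0.09, edgeR adjusted p = 6.50e-28). TM7SF2 shares 16 exon bases with VPS51 on the same strand.

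HMGCS1, which makes HMG-CoA at the start of the mevalonate pathway, measured 18.4, 20.7 and 18.7 CPM in DMSO, 14.4, 21.5 and 22.2 with compound 1 and 94.1, 95.4 and 76.7 with SCH772984. The compound 1 libraries spread on both sides of DMSO, and the lowest SCH772984 library was still well above every other library. HMGCS1 rose 4.58-fold (log2 2.20, SE 0.10, edgeR adjusted p = 2.10e-24). MVK, the kinase that phosphorylates mevalonate, measured 10.5, 12.2 and 9.95 CPM in DMSO, 13.6, 10.4 and 13.2 with compound 1 and 40.9, 46.5 and 52.9 with SCH772984. DMSO and compound 1 overlapped and SCH772984 stood above both. The rise of MVK was 4.28-fold (log2 2.10, SE 0.12, edgeR adjusted p = 1.17e-20).

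The remaining sterol enzymes are given along the pathway. ACAT2, which joins acetyl-CoA units at the first step, was only slightly higher, with a log2 fold change of 0.19 (SE 0.09, edgeR adjusted p = 0.0472). ACAT2 lost its call in 5 of the 7 refits with another scaling, filter, model or threshold and in every refit without 1 library. It shares 9.23% of its exon bases with TCP1 on the opposite strand, whose counts were 4216 to 7740. On that strand it also shares 26.5% with SOD2 (0 to 2 counts) and 33.9% with SOD2-OT1 (0 counts). Reads in these shared bases cannot be told apart where the strand setting is unknown. PMVK, the next kinase after MVK, measured 20.7 ± 2.41 CPM in DMSO and 17.9 ± 1.03 with SCH772984 (SD, n = 3), a log2 fold change of -0.21 (95% interval -0.46 to 0.03). MVK and MVD, the enzymes on either side of it, both rose, MVD from 38.5 ± 3.80 to 134.5 ± 7.45 CPM. Without DMSO replicate 3, PMVK passed the test at -0.30 (edgeR adjusted p = 0.0476).

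Farther along, IDI1, which isomerizes the isoprene unit, rose by 1.47 on the log2 scale and FDPS, which makes farnesyl diphosphate, by 0.54. FDFT1, the squalene synthase, rose from 106 ± 5.31 to 279 ± 17.5 CPM, and SQLE, which oxidizes squalene, rose by 1.05 on the log2 scale. LSS, which closes the ring to lanosterol, rose from 104.5 ± 5.44 to 434 ± 26.4 CPM (log2 2.05, SE 0.07, edgeR adjusted p = 3.75e-29). Every step from IDI1 to LSS was higher.

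Of the enzymes that turn lanosterol into cholesterol, CYP51A1, the lanosterol demethylase, rose from 15.4 ± 0.776 to 23.0 ± 3.09 CPM (log2 0.57, SE 0.13). Most exon bases of CYP51A1 (79.4%) are shared with AC000120.2 on the same strand, which had 0 counts. Whether reads in the shared bases were counted for CYP51A1 cannot be told here. Its level and change may therefore rest on only part of its exon bases. NSDHL, which completes removal of the methyl groups, rose by 0.68, SC5D, a sterol desaturase, by 1.43 and DHCR7, a reductase of the last steps, by 1.61 on the log2 scale. HSD17B7, the sterol ketone reductase, measured 43.9 ± 3.34 CPM in DMSO and 47.1 ± 1.89 with SCH772984, and its interval for the log2 change ran from -0.07 to 0.27. EBP, the sterol isomerase, measured 156 ± 11.8 and 173 ± 15.2 CPM, with an interval of 0.01 to 0.28 and an edgeR adjusted p of 0.0574. EBP passed the test with library size alone, with a block for replicate number, without DMSO replicate 1 and without SCH772984 replicate 1, at edgeR adjusted p from 7.18e-05 to 0.0494. HSD17B7 passed with library size alone (edgeR adjusted p = 0.00404). On the per-length scale EBP was the highest sterol enzyme in DMSO, at 64.9 ± 4.9 CPM per kb. The sum over the 18 sterol enzymes was 858 to 945 CPM in DMSO, 884 to 983 with compound 1 and 2195 to 2268 with SCH772984.

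**Figure D2:**
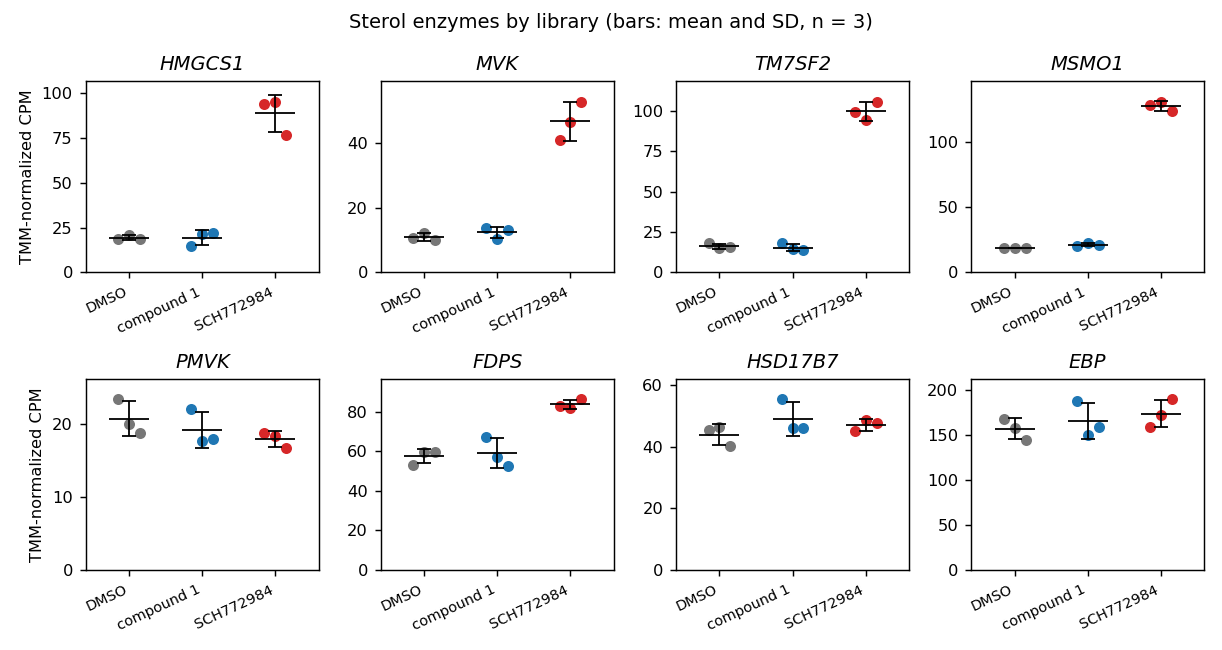
TMM-normalized CPM (y axis, from 0) of 8 sterol enzymes in each library of the 3 treatments (x axis), with points for libraries and bars for the mean and SD (n = 3). In the upper row the SCH772984 libraries stand apart from the other 6, and in the lower row only FDPS does so, while PMVK, HSD17B7 and EBP do not.

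Both SREBP genes and both INSIG genes rose, by unequal amounts. INSIG1, which retains SCAP and SREBPs in the endoplasmic reticulum and is itself an SREBP target, measured 32.05, 29.1 and 22.7 CPM in DMSO, 33.7, 28.8 and 33.2 with compound 1 and 169, 168 and 177 with SCH772984. The SCH772984 libraries were close to each other and far above the other 6. INSIG1 rose 6.11-fold (log2 2.61, SE 0.09, edgeR adjusted p = 4.90e-28). INSIG2, its paralog, measured 10.8, 14.7 and 12.4 CPM in DMSO, 13.5, 13.97 and 11.6 with compound 1 and 16.4, 18.1 and 16.3 with SCH772984. The lowest SCH772984 library was only a little above the highest DMSO library, and INSIG2 rose 1.34-fold (log2 0.42, SE 0.14, edgeR adjusted p = 0.00626). This call rested on DMSO replicate 1, without which the log2 change was 0.30 and the adjusted p 0.0859.

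SREBF2, which encodes the SREBP that mainly serves cholesterol synthesis, measured 103, 75.0 and 85.9 CPM in DMSO, 97.8, 88.5 and 94.0 with compound 1 and 285, 283 and 289 with SCH772984. The DMSO libraries spread more than the SCH772984 libraries and none came near them. SREBF2 rose 3.23-fold (log2 1.69, SE 0.08, edgeR adjusted p = 1.93e-20). SREBF1, which encodes the SREBPs tied mainly to fatty acid synthesis, measured 265, 264 and 283 CPM in DMSO, 270, 217 and 231 with compound 1 and 320, 320 and 353 with SCH772984. Every SCH772984 library was above every DMSO library, with a 1.22-fold rise (log2 0.29, SE 0.06, edgeR adjusted p = 6.22e-05). SREBF1 shares 556 exon bases with RAI1 on the opposite strand.

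Per kb of exon, the ratio of SREBF2 to SREBF1 was 0.302 to 0.414 in DMSO, 0.385 to 0.433 with compound 1 and 0.870 to 0.948 with SCH772984. The ratio of INSIG1 to INSIG2 was 1.99 to 3.23 in DMSO, 2.23 to 3.09 with compound 1 and 10.1 to 11.8 with SCH772984. Both ratios kept the SCH772984 libraries apart from all others, and they are a description without a test. SCAP, the sterol sensor that escorts SREBPs, rose by 0.15 on the log2 scale (SE 0.07, edgeR adjusted p = 0.0384). This call was lost with DESeq2, without the count filter, in the joint fit of 9 libraries and without any 1 DMSO library or SCH772984 replicate 3. Without SCH772984 replicate 3 the log2 change of SCAP was 0.09. STARD4, which carries sterol between membranes, had 0 counts in all 9 libraries, which allows up to 3 counts each (0.216 to 0.317 CPM of the library total). That limit holds only if the counting step kept the gene's reads, which cannot be told from the table. Of its neighbours on chromosome 5, WDR36 had 675 to 1160 counts and SLC25A46 622 to 1063, while CAMK4 had 0 to 2.

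**Figure D3:**
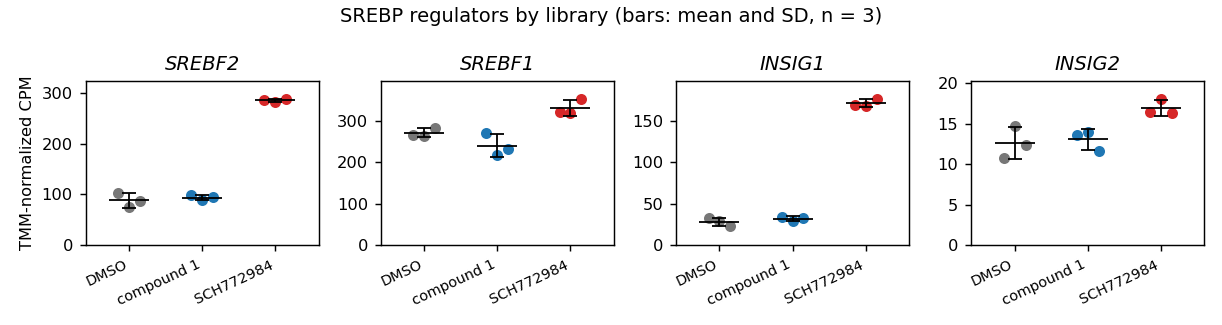
TMM-normalized CPM (y axis, from 0) of SREBF2, SREBF1, INSIG1 and INSIG2 in each library of the 3 treatments (x axis), with points for libraries and bars for the mean and SD (n = 3). SREBF2 and INSIG1 show a wide gap between SCH772984 and the other libraries, whereas SREBF1 and INSIG2 show a narrow one.

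The fatty acid enzymes split. FADS2, the desaturase that starts polyunsaturated fatty acid synthesis, measured 11.8, 9.04 and 9.95 CPM in DMSO, 9.78, 10.1 and 8.09 with compound 1 and 35.4, 36.5 and 36.4 with SCH772984. The SCH772984 libraries lay within about 1 CPM of each other and above all others, and FADS2 rose 3.50-fold (log2 1.81, SE 0.12, edgeR adjusted p = 5.32e-18). Its partner FADS1, a second desaturase, rose by 1.09 on the log2 scale, from 36.6 ± 0.518 to 77.8 ± 0.181 CPM. FADS1 and FADS2 share 490 exon bases on opposite strands. SCD, the stearoyl-CoA desaturase that makes oleic acid, measured 466, 400.4 and 398 CPM in DMSO, 466, 435 and 408 with compound 1 and 1400.4, 1369.7 and 1350.0 with SCH772984. SCD rose 3.25-fold (log2 1.70, SE 0.06, edgeR adjusted p = 5.56e-27), with no overlap between SCH772984 and the others.

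ACSS2, which makes acetyl-CoA from acetate, measured 17.3, 17.5 and 16.4 CPM in DMSO, 17.1, 15.7 and 20.9 with compound 1 and 56.4, 52.6 and 57.2 with SCH772984. The compound 1 libraries covered the DMSO range, and ACSS2 rose 3.24-fold with SCH772984 (log2 1.69, SE 0.10, edgeR adjusted p = 2.27e-20). ACLY, which makes acetyl-CoA from citrate, measured 537, 573 and 547 CPM in DMSO, 468, 477 and 522 with compound 1 and 579, 534 and 551 with SCH772984. The SCH772984 libraries overlapped DMSO, with a log2 change of 0.0026 (95% interval -0.12 to 0.12).

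ACACA, the carboxylase that commits acetyl-CoA to fatty acid synthesis, measured 181, 173 and 174 CPM in DMSO, 116, 151 and 157 with compound 1 and 290, 273 and 262 with SCH772984. It was above DMSO in every SCH772984 library and below it in every compound 1 library. With SCH772984 ACACA rose 1.56-fold (log2 0.64, SE 0.06, edgeR adjusted p = 2.12e-12). FASN, the fatty acid synthase itself, measured 893, 886 and 868 CPM in DMSO, 630, 577 and 589 with compound 1 and 724, 644 and 766 with SCH772984. All 6 inhibitor libraries were below all DMSO libraries. FASN fell by 0.31 on the log2 scale with SCH772984 (SE 0.06, edgeR adjusted p = 1.44e-05).

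ELOVL6, which elongates palmitate, measured 6.55, 5.18 and 6.56 CPM in DMSO, 7.09, 5.32 and 7.47 with compound 1 and 2.41, 1.77 and 2.95 with SCH772984. The SCH772984 libraries were the lowest and did not overlap the others. ELOVL6 fell by 1.35 on the log2 scale (SE 0.25, edgeR adjusted p = 4.73e-06), and per kb of exon it was the lowest tested member in DMSO and with SCH772984. Per kb of exon, SCD over FASN was 0.789 to 0.912 in DMSO, 1.21 to 1.31 with compound 1 and 3.08 to 3.72 with SCH772984, as a description. The 8 fatty acid enzymes summed to 2057 to 2148 CPM in DMSO, 1704 to 1748 with compound 1 and 2989 to 3165 with SCH772984.

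**Figure D4:**
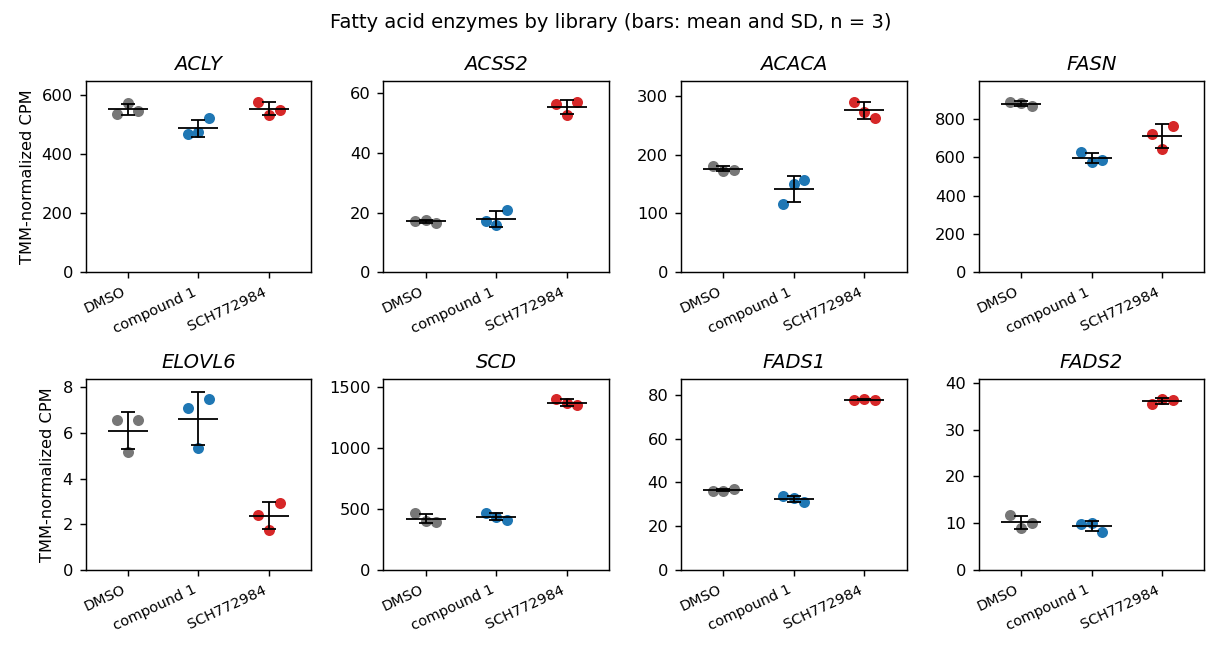
TMM-normalized CPM (y axis, from 0) of the 8 fatty acid enzymes in each library of the 3 treatments (x axis), with points for libraries and bars for the mean and SD (n = 3). SCD, ACSS2, ACACA, FADS1 and FADS2 are highest with SCH772984, ELOVL6 is lowest there, and FASN, ACACA and ACLY are lowest with compound 1.

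With compound 1, 1 of 31 tested members fell and 0 rose against the same 3 DMSO libraries (edgeR, adjusted p under 0.05), where 0.374% of 12849 tested genes fell and 0.490% rose. The member was FASN, which fell by 0.56 on the log2 scale, to 0.680 of its DMSO level (SE 0.06, edgeR adjusted p = 0.000297). At an unadjusted p under 0.05, 4 members were lower and 0 higher, and 7.69% of all tested genes were lower and 7.35% higher at that threshold. DESeq2 also called 1 member lower and 0 higher at an adjusted p under 0.05. The 4 were FASN, ACACA, ACLY and SREBF1, of which ACACA had a log2 change of -0.31 (edgeR adjusted p = 0.140), ACLY -0.17 (edgeR adjusted p = 0.216) and SREBF1 -0.18 (edgeR adjusted p = 0.301). Leaving out compound 1 replicate 1, which stood apart, 4 members were called lower: FASN, ACACA, SREBF1 and SCAP. The log2 change of ACACA was then smaller, at -0.19, and that of SREBF1 larger, at -0.27. In that refit 798 of all genes were lower and 453 higher, against 48 and 63 with all libraries.

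No sterol enzyme passed the test with compound 1, and the 95% intervals of all 18 lay between -0.38 and 0.52 on the log2 scale. Their median log2 change was 0.015, against 0.057 for the regulators, -0.15 for the fatty acid enzymes and 0.0024 for all genes. Without 1 library each, the medians ran from -0.017 to 0.047, from -0.050 to 0.081 and from -0.17 to -0.098 for the 3 roles, so the sign of the first and second was not stable. IDI1 (0.21, edgeR adjusted p = 0.361) and MSMO1 (0.22, edgeR adjusted p = 0.387) had every compound 1 library above every DMSO library without passing the test. They were 2 of 31 members, where 10.3% of all tested genes did so. LSS, CYP51A1, FASN, ACACA, ACLY and FADS1 had every compound 1 library below every DMSO library, 6 of 31 members against 10.6% of all tested genes. The values of INSIG1 and SREBF2 with compound 1 overlapped those in DMSO, at log2 changes of 0.19 and 0.09.

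The inhibitors were then compared directly, without the DMSO libraries, at the same dose and time. Relative to compound 1, 26 of 31 tested members were higher with SCH772984 and 1, ELOVL6, was lower (edgeR, adjusted p under 0.05), where 33.7% of 13863 tested genes were higher and 32.6% lower. Of the sterol enzymes 14 of 18 were higher, of the regulators all 5 tested, and of the fatty acid enzymes 7 of 8. The median log2 difference was 1.26 for sterol enzymes, 0.47 for regulators and 1.11 for fatty acid enzymes, against 0.032 for all genes. ACAT2, PMVK, HSD17B7 and EBP did not pass, and their 95% intervals lay between -0.38 and 0.42.

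The leading sterol enzymes differed by 2.59 for MSMO1, 2.70 for TM7SF2, 2.19 for HMGCS1 and 1.92 for MVK on the log2 scale. For ACACA the difference was 0.96 (SE 0.10, edgeR adjusted p = 5.52e-08) beside 0.64 against DMSO. FASN, lower with both inhibitors, was higher with SCH772984 than with compound 1 by 0.25 (SE 0.08, edgeR adjusted p = 0.0110), and ACLY by 0.18 (SE 0.08, edgeR adjusted p = 0.0470). The call of FASN was lost without compound 1 replicate 3 (adjusted p = 0.0909) and without SCH772984 replicate 3 (adjusted p = 0.0617), and that of ACLY in every refit without 1 library, with RLE factors, without the count filter, with DESeq2 and with a block for replicate number (adjusted p = 0.0521 to 0.166). INSIG2 and SCAP also lost their calls in some of these refits.

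Other lipid genes were counted from fixed lists in the same fits, with shares of all genes as above. Among 13 genes of SREBP processing and turnover 3 rose and 6 fell with SCH772984. The protease MBTPS1, which makes the first cut in SREBPs, rose from 266 ± 4.58 to 363 ± 11.4 CPM. ERLIN1, an endoplasmic reticulum protein that restrains SREBP activation, fell from 199 ± 9.96 to 113 ± 9.59 CPM. Of the NF-Y genes, NFYA fell by 0.38 and NFYB by 0.40 on the log2 scale (edgeR adjusted p = 3.75e-05 and 0.00113). NFYC and SP1 did not pass the test, at -0.17 and -0.14. Of 6 tested LXR receptors and targets 3 rose, among them the sterol exporter ABCG1 (log2 0.82, SE 0.21, edgeR adjusted p = 0.000722). In the isoprenoid branch, which uses farnesyl diphosphate for other ends, 8 of 13 fell and 0 rose. PDSS1, which makes the side chain of ubiquinone, fell by 1.68 on the log2 scale (SE 0.14, edgeR adjusted p = 5.24e-15). The sterol branch and the isoprenoid branch leave the same intermediate, and their called genes lay on opposite sides of DMSO.

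Of 13 tested genes of sterol transport and esterification 9 rose and 3 fell. ERG28, a scaffold of the sterol enzymes, had the largest called rise (log2 1.497, SE 0.08, edgeR adjusted p = 9.29e-21), and GRAMD1B, a sterol carrier, the largest called fall, by 2.48 (SE 0.09, edgeR adjusted p = 1.07e-26). Of 20 tested genes of fatty acid elongation, desaturation and activation 9 rose and 6 fell, and ME1, the malic enzyme that supplies NADPH, rose by 1.31 while MID1IP1, an activator of acetyl-CoA carboxylase, fell by 1.19 on the log2 scale. Among 17 genes of glycerolipid synthesis 7 rose, LPIN3 most (log2 2.07), and 6 fell, AGPAT5 most (log2 -1.15). Of 18 genes of fatty acid oxidation 11 rose, CPT1C most (log2 2.82), and 1 fell, CPT1A, the carnitine palmitoyltransferase that admits fatty acids to mitochondria, by 0.63. With compound 1, only GRAMD1B and ACADVL of these lists passed the test, both higher. ACADVL, the very long-chain acyl-CoA dehydrogenase, rose by 0.34 (SE 0.07, edgeR adjusted p = 0.0299). This call was lost without any 1 DMSO library or compound 1 replicate 3, with edgeR adjusted p from 0.0722 to 0.263.

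**Figure D5:**
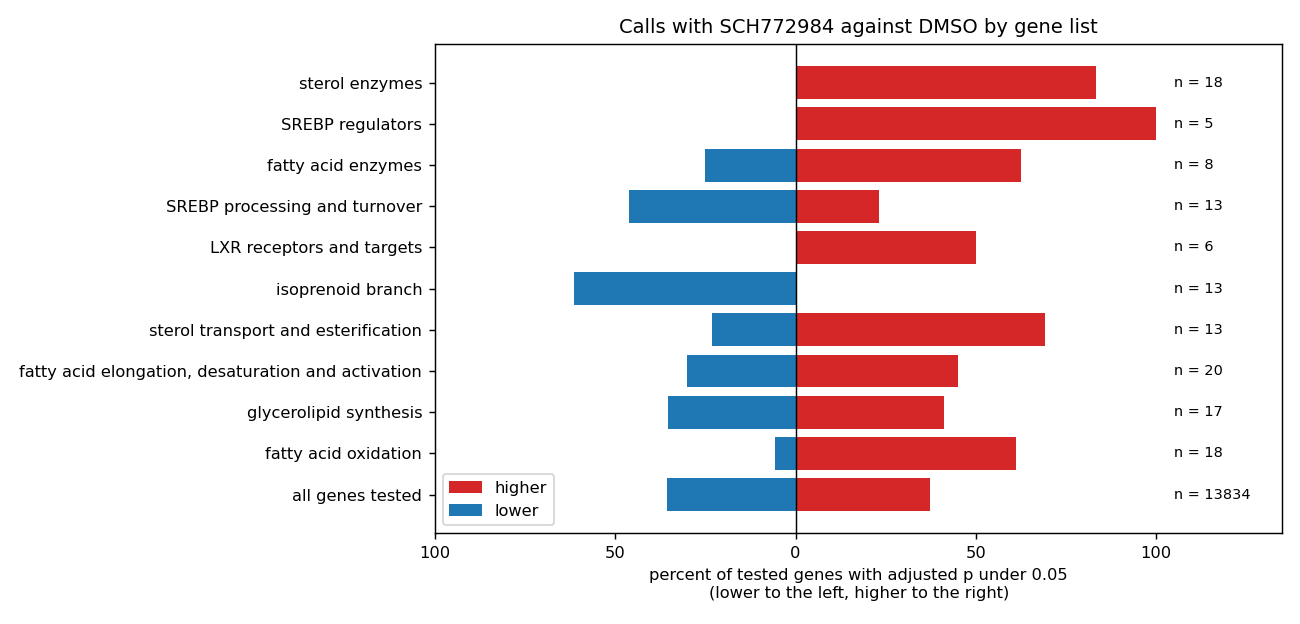
Percent of tested genes that rose (red, right) or fell (blue, left) with SCH772984 against DMSO at an edgeR adjusted p under 0.05 (x axis), by gene list (y axis) with the number tested. The sterol enzymes, SREBP regulators and LXR list have calls on the right alone, the isoprenoid branch on the left alone, and all genes tested 37.2% right and 35.5% left.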

How the data were processed

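RNA-Seq counts per gene were used as deposited by the authors, as whole numbers without normalization in 1 table of 9 libraries. Per the submitters' processing notes, HISAT2 2.0.5, featureCounts 1.5.0-p3 and hg38 were used. The strand setting is not given in the sources used here. All 58735 genes matched GENCODE 29 by identifier, start, end and strand. Libraries were grouped by their labels.

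Each comparison was fitted over the whole table with edgeR 4.0.16 in R 4.3.3 (TMM, filterByExpr with minimum count 10 and minimum total 15, robust quasi-likelihood test). A gene passed at a Benjamini-Hochberg adjusted p under 0.05 over all genes tested. CPM values used TMM factors over the 9 libraries, and CPM per kb divided by exon length. On simulated counts, 200 genes were changed by 1 on the log2 scale. Of the 181 changed genes that passed the filter, 90.6% were recovered for SCH772984 against DMSO (12752 genes). The shares were 87.6% of 193 for compound 1 (12590 genes) and 85.7% of 189 for the direct comparison (12920 genes). Smaller changes, such as the members' log2 changes of -0.56 to 0.22 with compound 1, were not simulated.

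Alternatives were DESeq2 1.42.0, library size alone, RLE factors, no count filter, a joint fit of the 9 libraries, a block for replicate number, an unadjusted threshold and leaving out each library. The members, lists and tests were chosen with earlier results of these data known, so their counts are descriptions, and no set test was run. Values per library are given for the 4 members of each role with the largest called change with SCH772984, members called or at an unadjusted p under 0.05 with compound 1, and members at the floor of 3 counts. In other lists the gene with the largest called rise and fall and at least 5 CPM was named. The NF-Y genes and SP1 were named as well, because their sites were searched in the promoters. Intervals and floors cover the libraries measured, and a floor covers counting error alone. Protein sequences were not used here.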

Additional observations from a re-analysis of the deposited data

Results flagged for a closer look

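GRAMD1B, which carries cholesterol from the plasma membrane to the endoplasmic reticulum, moved in opposite directions with the inhibitors. It measured 78.3, 77.4 and 84.8 CPM in DMSO, 122, 139 and 146 with compound 1 and 12.8, 14.5 and 15.8 with SCH772984. The 3 treatments did not overlap. Against DMSO GRAMD1B rose by 0.76 with compound 1 (SE 0.09, edgeR adjusted p = 0.000555) and fell by 2.48 with SCH772984 (SE 0.09, edgeR adjusted p = 1.07e-26) on the log2 scale. The direct comparison gave -3.24 (SE 0.11, edgeR adjusted p = 4.38e-15). It was singled out because the difference between the inhibitors passed this test while each inhibitor's own change also passed in the opposite direction. Single values of a gene were not screened for outlying libraries, since each treatment has 3.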

How the results depend on the processing

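Scaling by library size alone raised the SCH772984 changes against DMSO, with medians of 1.59 for sterol enzymes, 0.60 for regulators and 1.04 for fatty acid enzymes, and against compound 1 to 1.40, 0.61 and 1.25. Under that scaling the median of all genes moved from 0.028 to 0.20 and from 0.032 to 0.17, and higher against lower calls over all genes went from 5150 and 4916 to 6242 and 3911 against DMSO, and from 4674 and 4519 to 5526 and 3736 against compound 1. Without the count filter the median of all genes with SCH772984 was 0.36 against DMSO and 0.18 against compound 1. The regulators' median against DMSO ran from 0.30 to 0.53 without 1 library each, 0.30 without DMSO replicate 1 and 0.53 without DMSO replicate 2. For compound 1 the regulators' median ran from -0.050 to 0.081, -0.050 without DMSO replicate 1, and was 0.057 with all libraries.

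Members lower with compound 1 numbered 2 without the count filter, ACACA being added, and 4 at the unadjusted threshold. Without 1 library they numbered 1 to 4, the 4 arising without compound 1 replicate 1. Counts over all genes with compound 1 moved: 63 higher and 48 lower became 189 and 228 without the filter, 104 and 102 with DESeq2, 91 and 97 in the joint fit, 85 and 25 by library size, and 5 to 453 higher and 3 to 798 lower without 1 library, the most without compound 1 replicate 1. The cause was not tested. Members higher with SCH772984 stayed between 23 and 28 of 31 against DMSO and between 22 and 28 against compound 1 under all alternatives, with 2 or 3 and 1 lower.

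Same-numbered libraries did not deviate together (correlations of 0.01 to 0.05 for SCH772984 and DMSO, -0.02 to 0.08 for compound 1 and DMSO, and -0.08 to 0.11 between the inhibitors). With the replicate number as a block, members lower with compound 1 numbered 2, with ACACA added, and all genes 193 higher and 219 lower. Members higher with SCH772984 numbered 25 against DMSO, with EBP gained and ACAT2 lost, and 25 against compound 1, with ACLY lost. ELOVL6, the tested member with the fewest reads per kb with SCH772984, had the widest standard error, 0.25 on the log2 scale against DMSO.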
